A study of Mus musculus with 13 samples.

Results

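The comparison described here is that of motoneurons from mice given AAV-miR SOD1 with motoneurons from littermates that were not injected. It covers 8 of the 13 RNA-seq libraries of the study, 4 titled AAV-miR SOD1 (replicates 1, 2, 3 and 4) and 4 titled as non-injected SOD1 mutants (replicates 2, 3, 5 and 6). The libraries were placed in their groups by title. All mice carried the mutant human SOD1-G93A transgene, a model of amyotrophic lateral sclerosis, so no healthy animal enters the comparison. The AAV-miR SOD1 mice received, at postnatal day 2, an injection into the cerebral ventricles of an adeno-associated virus (AAV) that makes astrocytes express an artificial microRNA against human SOD1. The promoter that limits expression to astrocytes is not given in the sources used here. The non-injected mice lack the microRNA, the vector and the injection, so these cannot be told apart within this comparison. A further 5 libraries came from mice injected with a control vector, AAV-miR ctrl. They entered the filter on low counts, the scaling of library totals, the shared estimate of spread and a later model with a covariate. Their values are quoted beside some genes and marker sums.

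At 65 days of age the lumbar cord was frozen together with its vertebrae and cut at 14 µm. Motoneurons were recognised by cresyl violet, collected by laser, and pooled to 500 cells per mouse. Each library is thus 1 mouse, and the pool mixes fast, slow and gamma motoneurons with any tissue the laser took along. In such bulk samples, fewer cells of a type and less RNA per cell cannot be told apart.

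Spinal motoneurons are large cholinergic neurons whose axons leave the cord and drive muscle. They depend on neurofilaments, microtubule motors and synaptic vesicles to keep a distant terminal working, and on a balance of glutamate, GABA and glycine receptors to set their firing. In SOD1 models the mutant protein in astrocytes is known to harm motoneurons, and the fast-fatigable units lose their muscle contacts early.

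Between 16.4 and 22.8 M counts (1 M is 1000000) were assigned to genes in the AAV-miR SOD1 libraries and between 17.5 and 37.4 M in the non-injected libraries (19.6 ± 3.01 against 28.5 ± 9.69 M, SD, n = 4 each; two-sided exact permutation test, p = 0.143). With 4 libraries against 4 the smallest p that such a test can give is 0.0286. The AAV-miR SOD1 libraries, shallower on average, had more genes with at least 1 count, 22998 ± 457 against 22034 ± 540 (SD, n = 4 each; exact permutation p = 0.0571, adjusted p = 0.229 over 8 library measures). They also had more reads aligned to several places, 132 ± 13.4 against 103 ± 21.2 per 100 assigned counts (SD, n = 4 each; exact permutation p = 0.0571, adjusted p = 0.229). Depth and these alignments also differed by replicate number. Non-injected replicates 2, 3, 5 and 6 had 23.1, 17.5, 37.4 and 35.8 M counts, and 125, 115, 90.4 and 79.7 such alignments. Control vector replicates 5 and 6 had 37.3 and 29.7 M, and 87.8 and 96.2. AAV-miR SOD1 has no replicates 5 and 6, so replicate number and group cannot be told apart fully. A level of 3 counts corresponds to 0.0749 to 0.190 counts per 1000000 after TMM scaling of the library totals (CPM), and levels below it are not distinguishable from 0 by counting error alone. The table labelled non-injected replicate 3 has a column header that names the control vector group, and 1 control vector table has the reverse. The labels were followed, and results that rest on this library are given with and without it.

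Of 17403 genes tested with edgeR's quasi-likelihood test, 0 (0%) had a Benjamini-Hochberg adjusted p under 0.05, and the smallest adjusted p was 0.14. Limma-voom with sample quality weights also called 0 genes. DESeq2 called 551 genes higher (3.17%) and 474 lower (2.72%) in AAV-miR SOD1. On counts simulated for this comparison, 48 of DESeq2's 190 calls were false, against 9 of edgeR's 133. These counts were drawn for each gene on its own with edgeR's estimates of spread. They lack shifts shared by many genes, so they do not settle which tool's calls hold in the real data. At an unadjusted edgeR p under 0.05, 1629 genes (9.36%) were higher and 2006 (11.5%) lower, where 870 in all would be expected if no gene differed. Without non-injected replicate 3 the same counts were 1118 of 17871 genes (6.26%) higher and 1382 (7.73%) lower. The levels of the 4 AAV-miR SOD1 libraries all lay above those of the 4 non-injected libraries for 1027 genes (5.90%), and all below for 1011 (5.81%). Sizes were moderate: 958 genes with an unadjusted p under 0.05 had a log2 fold change of at least 1 and 678 of at most -1, while 159 reached 2 and 67 reached -2. The median log2 fold change of all genes was -0.09. Since no gene passed the adjusted threshold in edgeR, the groups of genes below are described by other values. These are their members' unadjusted counts, their non-overlapping members and their medians, to be read against the shares above. With each library left out in turn, the unadjusted count over all genes also moved, from 2431 to 4146. List counts without a library are therefore to be read against a moving background.

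Sod1, the mouse gene nearest to the microRNA's human target, was at 168, 273, 235 and 271 CPM in AAV-miR SOD1 replicates 1 to 4 and at 377, 472, 255 and 232 CPM in non-injected replicates 2, 3, 5 and 6. The groups overlapped (log2 fold change -0.49 ± 0.26 SE, edgeR adjusted p = 0.292). Without non-injected replicate 3 the log2 fold change was -0.28. The sources used here do not say how transgene reads were treated in the counting.

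Markers of red cell precursors and white cells were higher in AAV-miR SOD1 libraries than in non-injected ones, and these values are given before the neuronal results. All 19 erythroid markers tested had an unadjusted p under 0.05 and were higher, against 9.36% of all genes, with 9 non-overlapping and a median log2 fold change of 1.72. Their summed level was 52325, 48127, 22827 and 33639 CPM in AAV-miR SOD1 replicates 1 to 4 and 21814, 6345, 9580 and 7051 CPM in non-injected replicates 2, 3, 5 and 6. No AAV-miR SOD1 library overlapped the non-injected ones, and non-injected replicate 2 came closest to them. With the control vector it ran from 4385 to 29845 CPM. Without each library in turn, 16 to 19 erythroid members had an unadjusted p under 0.05. Of the neutrophil list, 10 of 14 were higher, with 7 non-overlapping and a median of 1.27, and its sum ran from 30389 to 83496 CPM against 15563 to 24846 CPM. Without AAV-miR SOD1 replicate 1 the neutrophil count was 4.

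Among the most abundant higher genes were several known from these cells. Hbb-bs, the adult beta-globin gene on chromosome 7 (GRCm38, 103826534 to 103828096, minus strand), was at 24703, 22992, 11383 and 16297 CPM against 10962, 2941, 3785 and 2948 CPM. Its log2 fold change was 1.87 ± 0.63 (SE; edgeR adjusted p = 0.147). S100a9 and S100a8, which form the calprotectin of neutrophils, had log2 fold changes of 1.62 and 1.60, and Camp, an antimicrobial peptide of neutrophil granules, of 1.43. Lyz2, the lysozyme of myeloid cells, was at 2861 to 7406 CPM against 1471 to 2341 CPM. Tmsb4x, an actin-binding peptide abundant in leukocytes, had a log2 fold change of 0.76. Hbb-bt and Hba-a1, further globins, had values of 1.95 and 1.76. Globin copies are near identical, so the split of reads among them is uncertain.

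Other blood lineages had the same sign. For B lineage markers, 7 of 14 were higher at an unadjusted p under 0.05 with a median of 0.95, and the count was 1 without AAV-miR SOD1 replicate 4, without non-injected replicate 3 or without non-injected replicate 6. Ms4a1, which encodes CD20, was at 19.2, 30.7, 33.3 and 47.0 CPM against 24.5, 6.38, 11.9 and 5.37 CPM, so non-injected replicate 2 overlapped. For T and NK cell markers, 3 of 8 were higher, with 7 without non-injected replicate 2 and 1 without AAV-miR SOD1 replicate 4, non-injected replicate 3 or non-injected replicate 6. Cd4, a co-receptor of helper T cells, was at 2.51 to 5.44 CPM against 0.323 to 1.28 CPM. Megakaryocyte markers had 0 of 6 at that threshold, and AAV-miR SOD1 replicate 1 stood apart in Gp1bb, a platelet glycoprotein, at 215 CPM with at most 6.87 CPM in its group's other libraries. Of immunoglobulin variable segments, 85 of 216 passed the filter on low counts, 26 were higher and 2 lower, with 1 lower without AAV-miR SOD1 replicate 1 or 3 and 4 lower without non-injected replicate 3. Different libraries carried different segments: Igkv13-85 was at 0.979, 27.5, 35.9 and 0.190 CPM in AAV-miR SOD1 replicates 1 to 4, and Igkv4-57-1 at 0.0445, 0.816, 0.616 and 41.2 CPM. These segments are a family whose members can share reads.

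Markers of the tissue around the cord separated the groups less. Osteoblast and osteoclast markers had 1 of 12 higher (Phex, an endopeptidase of bone-forming cells), with sums of 4577 to 6598 CPM against 1376 to 7946 CPM. Non-injected replicate 5 held the highest of these sums, and without it 9 osteoblast and osteoclast markers were higher. The count was 2 without AAV-miR SOD1 replicate 3 and 0 without AAV-miR SOD1 replicate 2 or without non-injected replicate 2, 3 or 6. Chondrocyte, fibroblast, endothelial and pericyte or smooth muscle lists had 0 members at an unadjusted p under 0.05, of 7, 9, 10 and 8 tested. Skeletal muscle markers had 0 of 12, although their sum differed widely within both groups, from 8809 to 117767 CPM in AAV-miR SOD1 and from 34657 to 108665 CPM in non-injected libraries. Among glia, astrocyte markers had 1 of 12 lower (Aldoc), oligodendrocyte markers 0 of 12, their precursors 0 of 6, and Schwann cell markers 1 of 6 lower (Pmp22). The Schwann cell count was 0 without AAV-miR SOD1 replicate 1 or 4, and the astrocyte list had 2 lower without non-injected replicate 6 and 2 higher without non-injected replicate 5. Inhibitory interneuron, excitatory interneuron, dorsal root sensory neuron and ependymal lists had 0 of 6, 0 of 4, 0 of 3 and 0 of 4, and in the sensory list Mrgprd and Prdm12 had no count in any of the 8 libraries.

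**Figure D1:**
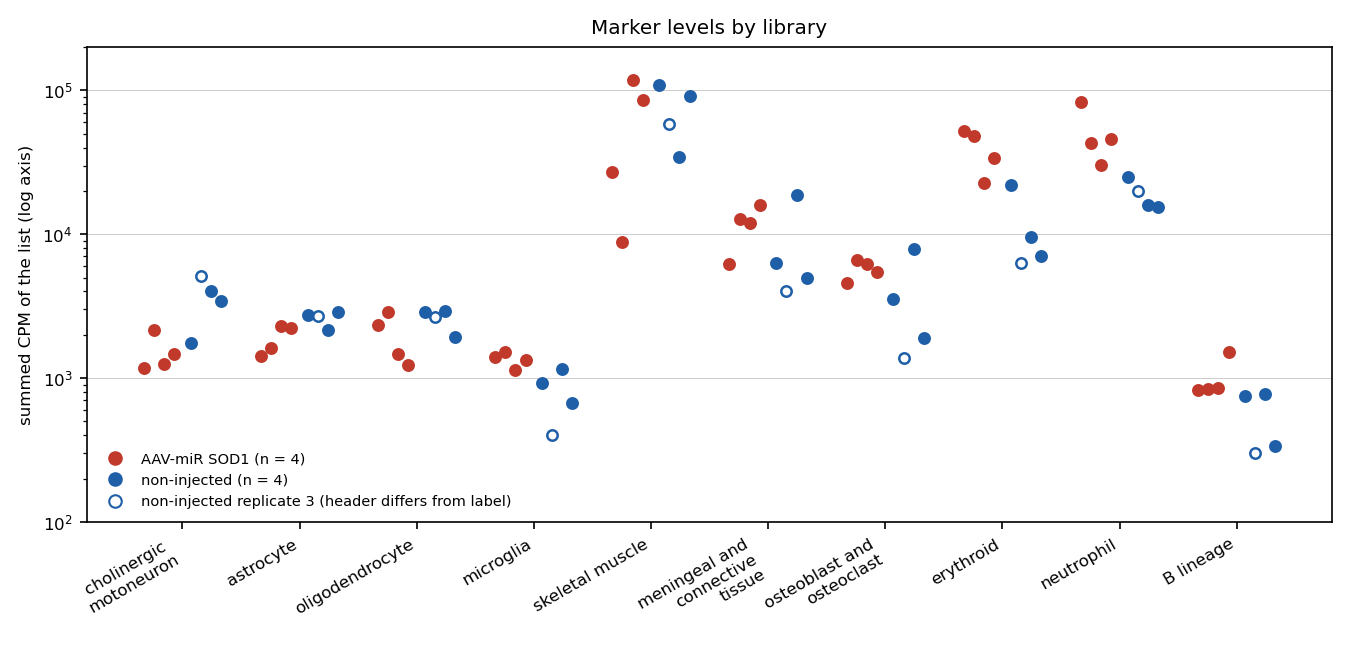
Summed CPM of 10 marker lists in each library (log axis), red for AAV-miR SOD1 and blue for non-injected, with non-injected replicate 3 as an open circle. The erythroid and neutrophil sums of the 4 AAV-miR SOD1 libraries all lie above those of the 4 non-injected libraries, while muscle and glial sums overlap.

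Genes that define a motoneuron were lower in AAV-miR SOD1. Of 12 cholinergic identity genes, all tested, 10 had an unadjusted p under 0.05 and were lower, against 11.5% of all genes, and 3 did not overlap, against 5.81%. The median log2 fold change was -1.19. Chat, the enzyme that makes acetylcholine (chromosome 14, GRCm38, 32408203 to 32465989, minus strand), was at 47.6, 66.8, 39.1 and 65.9 CPM against 82.9, 155, 98.5 and 100 CPM. Every AAV-miR SOD1 library lay below every non-injected one, a log2 fold change of -0.99 ± 0.27 (SE; edgeR adjusted p = 0.14). Slc5a7, the choline transporter of cholinergic terminals, was at 152 to 207 CPM against 257 to 589 CPM, with non-injected replicate 3 the highest. Mnx1, a transcription factor of motoneuron fate, was at 6.77, 7.06, 3.46 and 7.08 CPM against 6.97, 20.5, 21.1 and 15.7 CPM, so non-injected replicate 2 lay among the AAV-miR SOD1 libraries. The summed cholinergic level was 1182, 2151, 1248 and 1477 CPM against 1758, 5103, 3997 and 3432 CPM, and the same non-injected library overlapped. With the control vector this sum was 1474, 2254 and 2353 CPM in replicates 1, 3 and 4, and 4976 and 4526 CPM in replicates 5 and 6. AAV-miR SOD1 has no replicates 5 and 6, so replicate number and group cannot be told apart fully. Leaving out each library in turn gave 8 to 11 lower members.

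Of 8 genes for gamma and slow motoneurons, 3 were lower (median -0.66), and of 8 for fast alpha motoneurons, 3 were lower (median -0.53). Without AAV-miR SOD1 replicate 4 the gamma and slow list had 5 lower (median -0.99). Kcnab1, a potassium channel beta subunit listed with slow motoneurons, was at 50.7 to 71.5 CPM against 87.1 to 190 CPM without overlap. Gfra1, the GDNF co-receptor enriched in gamma motoneurons, was at 17.3 to 38.5 CPM against 36.6 to 75.1 CPM. Calca, the CGRP gene listed with fast motoneurons, was at 213, 457, 304 and 302 CPM against 307, 1165, 915 and 801 CPM. Hspb8, a small heat shock protein, was at 128 to 310 CPM against 322 to 447 CPM. No test of a difference between the subtypes was run. Hox genes, which set the position of motoneurons along the cord, had 8 of 27 tested members lower (median -0.54), and 3 without non-injected replicate 3. Hoxa7 was at 22.7 to 38.8 CPM against 35.0 to 61.7 CPM.

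The axon's structural genes were lower on a broad front. Of 24 genes for neurofilaments and the axonal cytoskeleton, 17 were lower and 6 did not overlap (median -0.90), with 12 to 19 lower when each library was left out. Stmn4, a microtubule regulator of the stathmin family, was at 15.8, 17.8, 9.29 and 9.80 CPM against 22.1, 30.3, 31.7 and 24.4 CPM, without overlap. Its relative Stmn2, which supports axon maintenance and is a target of TDP-43 in human neurons, was at 506, 919, 529 and 715 CPM against 920, 2265, 1568 and 1321 CPM (log2 fold change -1.19 ± 0.36 SE). The highest AAV-miR SOD1 library and the lowest non-injected one, both replicate 2, lay side by side without crossing. Mapt, the tau gene, was at 34.4 to 59.3 CPM against 55.6 to 101 CPM, and Tubb4a, a neuronal tubulin, at 117 to 301 CPM against 283 to 717 CPM. Tppp3, a tubulin polymerization factor, was at 403, 625, 668 and 637 CPM against 835, 1534, 1211 and 1222 CPM.

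Of 22 motors and adaptors of axonal transport, 16 were lower (median -0.66). That count was 7 without non-injected replicate 3, 6 without AAV-miR SOD1 replicate 3, and 10 without either AAV-miR SOD1 replicate 1 or non-injected replicate 5. Kif5a, the neuronal kinesin mutated in familial forms of the disease, was at 40.7 to 86.8 CPM against 92.2 to 162 CPM. Kif1b, a carrier of mitochondria and synaptic vesicle precursors, was at 174 to 222 CPM against 249 to 400 CPM, and Dync1i1, an intermediate chain of dynein, at 65.1 to 100 CPM against 105 to 236 CPM. All 3 were without overlap.

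The synaptic vesicle release machinery had 21 of 32 members lower and 5 without overlap (median -0.87). Leaving out AAV-miR SOD1 replicate 1 or non-injected replicate 3 gave 13, and leaving out AAV-miR SOD1 replicate 3 gave 12. Syn2 (chromosome 6, GRCm38, 115134902 to 115282006, plus strand), which tethers vesicles in reserve, was at 30.8, 39.0, 31.0 and 38.2 CPM against 57.0, 95.0, 92.3 and 75.6 CPM. The tight AAV-miR SOD1 values lay wholly below the non-injected ones. Rab3c, a vesicle GTPase, was at 13.4 to 28.8 CPM against 27.7 to 66.2 CPM, and Syt11, a synaptotagmin that does not bind calcium, at 319 to 509 CPM against 598 to 1211 CPM. Clstn3, a calsyntenin that organises synapses, was at 47.5, 56.4, 60.1 and 57.8 CPM against 102, 133, 114 and 110 CPM (log2 fold change -1.05 ± 0.22 SE). The adhesion molecules and scaffolds of the synapse had 11 of 27 lower (median -0.60). That count was 3 without non-injected replicate 3, 5 without AAV-miR SOD1 replicate 1 and 7 without AAV-miR SOD1 replicate 3.

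Among inhibitory receptors was the lower gene with the smallest p. Gabrg1, the gamma-1 subunit of the GABA-A receptor (chromosome 5, GRCm38, 70751047 to 70842617, minus strand), was at 4.90, 4.61, 5.78 and 6.64 CPM against 15.2, 21.1, 16.6 and 12.3 CPM. The lowest non-injected library lay well above the highest AAV-miR SOD1 library, a log2 fold change of -1.57 ± 0.28 (SE; edgeR adjusted p = 0.14). It was at 9.46 to 21.2 CPM with the control vector. Of 11 GABA-A subunits tested, 6 were lower and 4 without overlap (median -0.95), with 5 to 7 lower when each library was left out. Gabra5, an extrasynaptic alpha subunit, was at 9.57 to 17.7 CPM against 14.8 to 34.8 CPM. Among glycine receptors and their scaffold, 3 of 7 were lower. Glrb, the beta subunit, was at 102 to 137 CPM against 175 to 315 CPM, and Gphn, which encodes gephyrin, at 27.9 to 34.5 CPM against 38.9 to 60.8 CPM. Slc12a5, the chloride exporter KCC2, overlapped, at 72.1 to 118 CPM against 107 to 229 CPM.

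Excitatory receptors were lower too, with more dependence on single libraries. Of 16 ionotropic glutamate receptor subunits, 10 were lower (median -0.83), but 2 were without non-injected replicate 3, 3 without AAV-miR SOD1 replicate 1 and 4 without AAV-miR SOD1 replicate 3. Gria1, an AMPA receptor subunit, was at 2.67, 3.94, 2.94 and 5.75 CPM against 6.55, 8.77, 7.82 and 6.56 CPM. Gria4 was at 15.8 to 27.5 CPM against 25.7 to 45.0 CPM, and Grin3a, an NMDA receptor subunit, at 6.30 to 15.8 CPM against 14.9 to 29.3 CPM, both with overlap. Of 14 metabotropic glutamate, muscarinic and serotonin receptors, 6 were lower (median -0.73). Of 12 genes of the C-bouton, the large cholinergic synapse on motoneurons, and its neuregulin signal, 6 were lower (median -0.72), and 3 without AAV-miR SOD1 replicate 1, AAV-miR SOD1 replicate 3 or non-injected replicate 3. Chrm2, its muscarinic receptor, was at 31.9 to 45.2 CPM against 53.1 to 101 CPM.

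Among channels that set firing, 5 of 9 sodium channel genes were lower (median -0.82), 3 of 14 calcium channel genes (median -0.50) and 19 of 39 potassium channel genes (median -0.62). The potassium channel count was 8 without AAV-miR SOD1 replicate 3 or non-injected replicate 3, and 9 without AAV-miR SOD1 replicate 1. Scn2b, a sodium channel beta subunit, was at 1.77 to 2.36 CPM against 2.81 to 7 CPM. Scn1a, a pore-forming subunit, was at 84.0 to 124 CPM against 124 to 235 CPM. Cacnb2, a calcium channel beta subunit, was at 4.14 to 6.57 CPM against 9.21 to 13.3 CPM. Kcnh2, the ERG potassium channel, was at 12.8 to 16.6 CPM against 23.7 to 42.1 CPM, and Kcnmb4, a subunit of the BK channel, at 5.70 to 9.36 CPM against 11.2 to 24.8 CPM. Calcium buffers and pumps had 7 of 20 lower and 1 higher (median -0.43), with 3 lower without AAV-miR SOD1 replicate 1, AAV-miR SOD1 replicate 3 or non-injected replicate 3, and 4 without non-injected replicate 5. None was higher without AAV-miR SOD1 replicate 1 or non-injected replicate 2 or 3. Ncs1, a neuronal calcium sensor, was at 16.3 to 34.8 CPM against 29.8 to 66.4 CPM. Cabp7, a calcium-binding protein of the calmodulin family, was at 12.3, 17.1, 12.7 and 17.0 CPM against 30.4, 55.9, 45.5 and 37.9 CPM.

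Genes of injury and regrowth, which motoneurons switch on when their axon is damaged, were on the low side in AAV-miR SOD1. Of 15 tested, 7 were lower and 5 did not overlap (median -1.19), with 5 to 9 lower when each library was left out. Gap43, a growth cone protein (chromosome 16, GRCm38, 42248442 to 42340651, minus strand), was at 13.6, 25.1, 11.7 and 14.2 CPM against 38.2, 54.3, 48.9 and 39.5 CPM. Only AAV-miR SOD1 replicate 2 came above 20 CPM in its group, and the log2 fold change was -1.49 ± 0.31 (SE; edgeR adjusted p = 0.14). Ecel1, an endopeptidase induced by nerve injury, was at 22, 39.1, 25 and 26.9 CPM against 50.4, 145, 149 and 123 CPM (log2 fold change -2.05 ± 0.52 SE). Jun, the transcription factor that leads the regeneration program, was at 20.2 to 39.7 CPM against 40.7 to 117 CPM, and its lowest non-injected library, replicate 2, was close to the AAV-miR SOD1 range. Of 17 activity-dependent early genes tested, 1 was higher and 1 lower, shares below the 9.36% and 11.5% of all genes. Their median was -0.51, and 0.43 within the libraries numbered 1 to 4 alone. Btg2, an antiproliferative gene, was higher at 90.5 to 136 CPM against 25.1 to 68.9 CPM, and Bdnf lower at 2.49 to 5.31 CPM against 4.24 to 15.3 CPM. That list had 2 higher without non-injected replicate 2. It had 2 lower without AAV-miR SOD1 replicate 1 or non-injected replicate 2, 3 or 5, and 3 lower without AAV-miR SOD1 replicate 3. Receptors for neurotrophic and growth factors had 5 of 18 lower and 1 higher, among them Ntrk3, the receptor of neurotrophin-3, at 17.1 to 28.4 CPM against 29.3 to 50.5 CPM. The count of higher receptors was 0 without AAV-miR SOD1 replicate 1, 2 or 4 or non-injected replicate 5 or 6. Of axon guidance and adhesion genes, 12 of 37 were lower (median -0.55), and 7 without AAV-miR SOD1 replicate 3. Cntn1, an axonal contactin, was at 56.1 to 71.9 CPM against 83.0 to 174 CPM. Perineuronal net genes had 3 of 12 lower, and 1 without any of 5 libraries (AAV-miR SOD1 replicates 1, 3 and 4 and non-injected replicates 3 and 5).

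The erythroid and neutrophil sums of the 4 AAV-miR SOD1 libraries, given above, all lay above those of the non-injected libraries, and their part in the neuronal differences was not tested. Without non-injected replicate 3, the library with the conflicting header, the cholinergic list had 8 of 12 lower and a median of -0.97, and the cytoskeletal list 13 of 24 and -0.77. With the 2 libraries of conflicting header exchanged between their groups, the cholinergic list had 7 lower and a median of -0.87. With replicate number as a block in the model, the cholinergic list had 2 of 12 lower and a median of -0.71. The cytoskeletal list then had 5 of 24 lower and a median of -0.65.

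**Figure D2:**
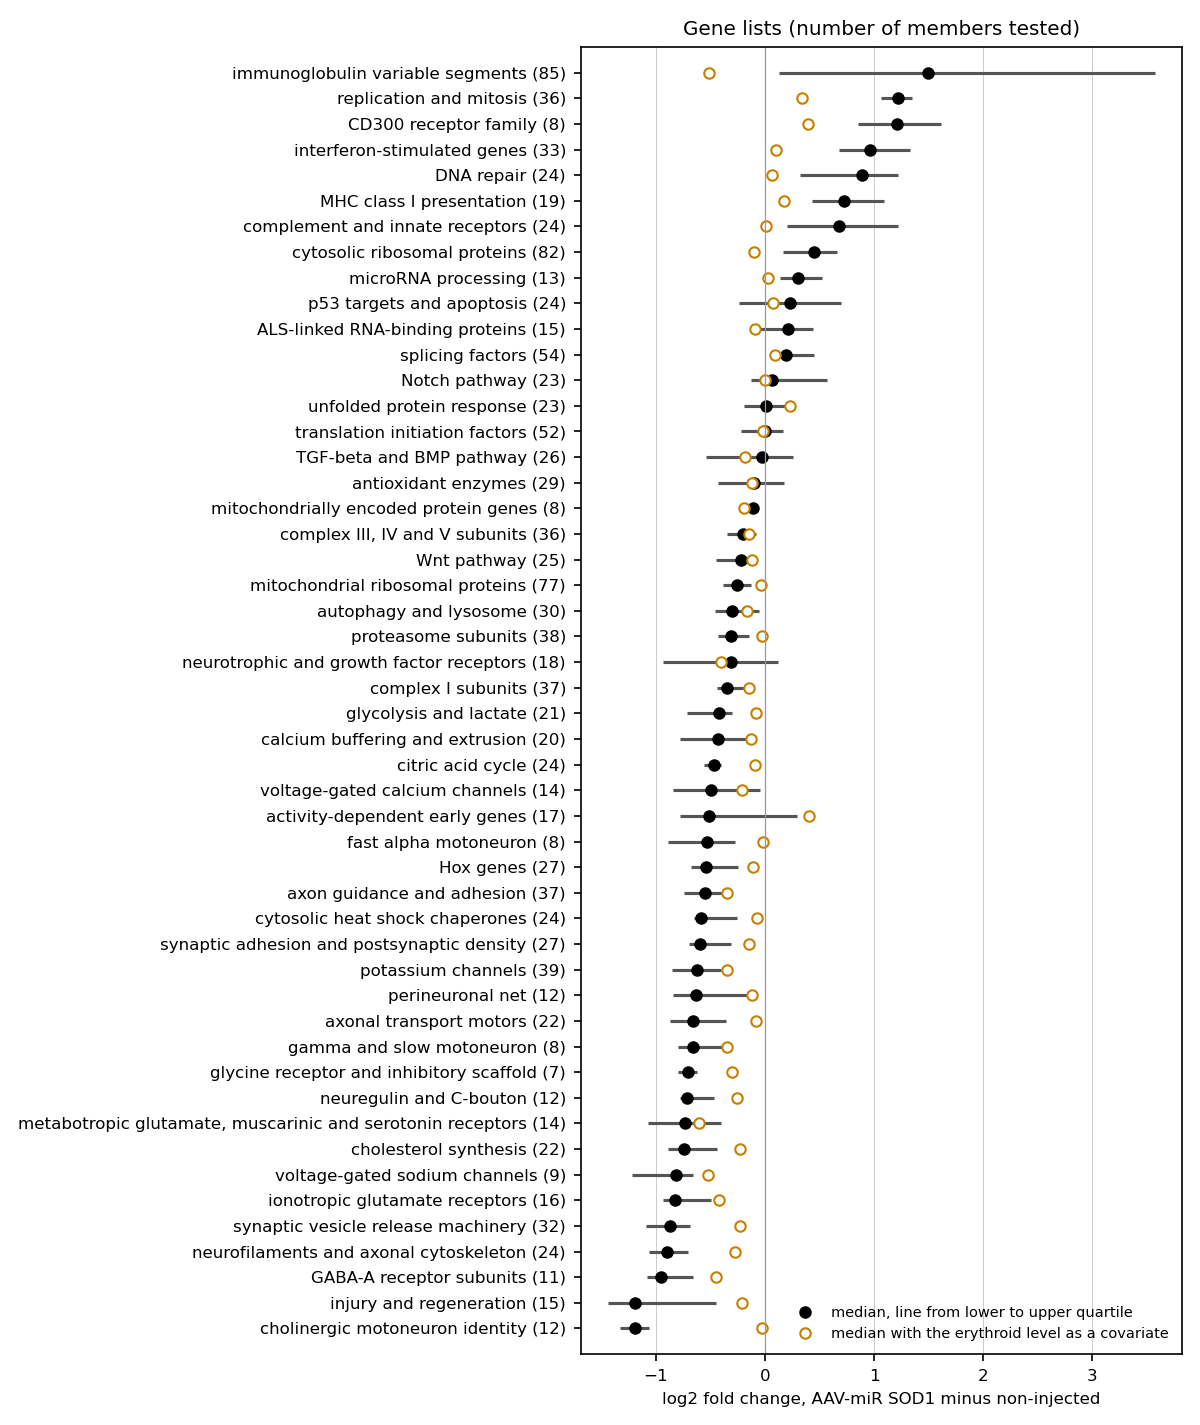
Median log2 fold change (AAV-miR SOD1 minus non-injected) of 50 functional gene lists, with the number of members tested in brackets and lines from the lower to the upper quartile of members. Filled circles come from the main model and open circles from the model with the erythroid level as a covariate. Neuronal lists reach -1.19 and replication and mitosis 1.22 in the main model, against -0.03 (cholinergic list) and 0.34 with the covariate.

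Cholesterol synthesis was the metabolic pathway with the largest share of lower members. Of 22 genes, 15 were lower and 11 did not overlap, against 5.81% of all genes, with a median of -0.74 and 13 to 17 lower when each library was left out. The nervous system makes its own cholesterol behind the blood-brain barrier. Pmvk, the second kinase of the mevalonate route, was at 41.9 to 56.5 CPM against 83.3 to 116 CPM. Sqle, squalene epoxidase and a flux-controlling enzyme (chromosome 15, GRCm38, 59315077 to 59331192, plus strand), was at 39.0, 62.2, 42.5 and 45.1 CPM against 64.6, 95.7, 98.2 and 91.1 CPM. Msmo1, a sterol demethylase of the late pathway, was at 52.8 to 83.1 CPM against 83.3 to 157 CPM. The groups did not overlap in any of the 3. Srebf2, which encodes the master regulator SREBP2 and is named here after its values were seen, had a log2 fold change of 0.20 (edgeR adjusted p = 0.584).

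A sterol response motif (TCACNCCAC on either strand) was found in the 250 bases before the start of 1 of 19 promoter windows of this list (5.26%), against 1.05% of 32851 mouse promoter windows in RefSeq (GRCm38.p6). That window belongs to Hmgcs1, the synthase that feeds the mevalonate route, and is shown because it is the one match (chr13:119690101-119690350, plus strand, motif in capitals). Hmgcs1, named for this match, had a log2 fold change of -0.67 (edgeR adjusted p = 0.14). A match is a description of letters and not a shown binding site.
Hmgcs1: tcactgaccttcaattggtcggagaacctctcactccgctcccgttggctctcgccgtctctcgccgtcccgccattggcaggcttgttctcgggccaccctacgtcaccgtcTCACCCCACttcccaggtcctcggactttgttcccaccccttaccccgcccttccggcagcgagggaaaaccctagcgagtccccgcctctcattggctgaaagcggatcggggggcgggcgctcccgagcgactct

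Lists of protein quality control had medians of -0.59 (cytosolic heat shock chaperones), -0.31 (proteasome), -0.30 (autophagy and lysosome) and 0.01 (unfolded protein response). Cytosolic heat shock chaperones had 11 of 24 lower and 8 without overlap (median -0.59), with 6 lower without AAV-miR SOD1 replicate 1 and 7 without AAV-miR SOD1 replicate 3 or non-injected replicate 3. Bag3, the co-chaperone that hands misfolded proteins to autophagy, was at 69.0, 101, 109 and 108 CPM against 156, 232, 153 and 204 CPM. Hsph1, a chaperone of the HSP110 family, was at 101 to 133 CPM against 154 to 238 CPM. Hspa4l, its relative, was at 61.3 to 84.6 CPM against 99.0 to 140 CPM. Sqstm1, the p62 autophagy receptor found in inclusions of the disease, was at 460, 566, 661 and 672 CPM against 734, 1252, 1117 and 1188 CPM (log2 fold change -0.86 ± 0.29 SE). Of autophagy and lysosome genes 8 of 30 were lower. That count was 3 without AAV-miR SOD1 replicate 3, 4 without AAV-miR SOD1 replicate 2 or non-injected replicate 3, and 5 without non-injected replicate 2, 5 or 6. Gabarapl1, an ATG8-like protein, was at 176 to 257 CPM against 287 to 597 CPM.

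Of 38 proteasome genes, 34 had a log2 fold change below 0 (median -0.31). At an unadjusted p under 0.05, 10 were lower and 2 higher, against 11.5% and 9.36% of all genes. Without overlap were 13 on the lower and 2 on the higher side, against 5.81% and 5.90% of all genes. The share of higher members was thus below that of all genes by both counts. The 2 higher members, Psmb8 at 93.6 to 136 CPM against 30.6 to 74.5 CPM and Psmb9 at 62.6 to 100 CPM against 19.4 to 53.6 CPM, are subunits of the immunoproteasome, which immune cells and interferon-treated cells use. Psmd1, of the regulatory cap, was at 135 to 166 CPM against 200 to 214 CPM. The lower count was 3 without AAV-miR SOD1 replicate 1 and 5 without AAV-miR SOD1 replicate 2, non-injected replicate 3 or non-injected replicate 5. The unfolded protein response of the endoplasmic reticulum had 2 higher and 2 lower of 23 (median 0.01), against 9.36% and 11.5% of all genes. It had 1 higher without AAV-miR SOD1 replicate 1 or 2 or non-injected replicate 2 or 3. Lower members numbered 0 without non-injected replicate 3 and 1 without any AAV-miR SOD1 library or non-injected replicate 5 or 6. Chac1, a glutathione-degrading enzyme of this response, was at 24.4 to 54.7 CPM against 53.5 to 130 CPM. Ppp1r15a, which restores translation after stress, was at 66.5 to 163 CPM against 25.4 to 81.1 CPM. Antioxidant enzymes had 4 higher and 1 lower of 29, against the same shares of all genes. They had 2 higher without AAV-miR SOD1 replicate 2 or 4 or non-injected replicate 3 or 6. Lower members numbered 4 without non-injected replicate 6 and 2 without AAV-miR SOD1 replicate 1 or 3 or non-injected replicate 2 or 3. Txnrd2, the mitochondrial thioredoxin reductase, was at 47.3 to 65.6 CPM against 26.1 to 45.6 CPM. Gpx1, a peroxidase that is also abundant in red cells, was at 3411 to 7455 CPM against 1341 to 3479 CPM.

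Few energy genes passed the unadjusted threshold. Complex I had 1 of 37 members at an unadjusted p under 0.05 (Ndufa10, lower), the other respiratory complexes 0 of 36, and the 8 mitochondrially encoded genes with counts 0. A further 5 mitochondrially encoded genes (mt-Co2, mt-Co3, mt-Atp6, mt-Atp8 and mt-Nd4l) are listed at 0 in all 8 libraries, which is a property of the counting and not a level. All 37 complex I genes had a log2 fold change below 0, with a median of -0.35. The complex I count of 1 was 0 without AAV-miR SOD1 replicate 1 or 2 or non-injected replicate 3 or 6, 2 without AAV-miR SOD1 replicate 3 or non-injected replicate 5, and 3 without AAV-miR SOD1 replicate 4. The citric acid cycle had 2 of 24 lower, with Mdh1 at 725 to 1291 CPM against 1403 to 2218 CPM. The citric acid cycle count was 0 without AAV-miR SOD1 replicate 1, 1 without AAV-miR SOD1 replicate 2 or non-injected replicate 2 or 6, 4 without AAV-miR SOD1 replicate 3 or non-injected replicate 5, and 5 without AAV-miR SOD1 replicate 4. Glycolysis had 5 of 21 lower, among them the neuronal enolase Eno2 at 158 to 334 CPM against 268 to 819 CPM. The glycolysis list had 0 higher, but 1 without AAV-miR SOD1 replicate 4 or non-injected replicate 2 and 2 without AAV-miR SOD1 replicate 3 or non-injected replicate 6. Pkm, pyruvate kinase, was at 618 to 1175 CPM against 1220 to 2069 CPM. Mitochondrial ribosomal proteins had 11 of 77 lower, a share close to the 11.5% of all genes. Cytosolic ribosomal proteins had 11 of 82 higher (median 0.45), against 9.36% of all genes. The mitochondrial count was 1 without AAV-miR SOD1 replicate 1, 3 without AAV-miR SOD1 replicate 2, 4 without non-injected replicate 2 or 3, and 7 without non-injected replicate 5. The cytosolic count was 47 without non-injected replicate 2, 4 without AAV-miR SOD1 replicate 4, 2 without AAV-miR SOD1 replicate 1 or 2 or non-injected replicate 5, and 1 without non-injected replicate 6. It was 0 of 82 within the libraries numbered 1 to 4 alone (median 0.15) and 0 of 82 with replicate number as a block (median 0.17). The cytosolic list summed to 9053 to 9550 CPM in AAV-miR SOD1 libraries. In non-injected replicates 2, 3, 5 and 6 the sum was 9791, 6808, 4667 and 4040 CPM. Control vector replicates 5 and 6 were at 4375 and 4742 CPM, and replicates 1, 3 and 4 at 9445, 8313 and 7393 CPM.

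Of the 50 functional lists, cell division genes had the largest share of members at an unadjusted p under 0.05. Of 36 genes for replication and mitosis, 35 were higher, against 9.36% of all genes, and 15 did not overlap, against 5.90%. The median log2 fold change was 1.22, and 28 to 36 members were higher when each library was left out. Cdk1, the kinase that starts mitosis (chromosome 10, GRCm38, 69335146 to 69352938, minus strand), was at 169, 125, 73.7 and 130 CPM against 62.7, 37.2, 65.9 and 42.0 CPM. AAV-miR SOD1 replicate 3 lay just above the highest non-injected library. Mki67, the proliferation marker, was at 185, 223, 73.4 and 99.4 CPM against 51.5, 40.9, 82.3 and 45.5 CPM, with that same library overlapping. Cenpf, a kinetochore protein, was at 36.7 to 75.5 CPM against 17.3 to 30.6 CPM. Of DNA repair genes, 11 of 24 were higher (median 0.89), and 5 without any of 4 libraries (AAV-miR SOD1 replicates 1 and 2, non-injected replicates 3 and 6). Wdhd1, a replication fork protein, was at 34.6, 28.1, 14.5 and 18.3 CPM against 6.64, 8.43, 8.76 and 6.56 CPM. Rad54l, a recombination helicase, was at 15.1 to 27.4 CPM against 5.47 to 15 CPM.

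Of 24 p53 targets and apoptosis genes, 6 were higher and 1 lower (median 0.23), with 3 higher without AAV-miR SOD1 replicate 1 and 0 lower without AAV-miR SOD1 replicate 2, 3 or 4 or non-injected replicate 5 or 6. Apaf1, the scaffold of the apoptosome, was at 32.7, 19.2, 11.3 and 13.7 CPM against 6.23, 7.23, 6.49 and 4.71 CPM, a log2 fold change of 1.64 ± 0.39 (SE; edgeR adjusted p = 0.14). Its partner Casp9 was at 17.8 to 23.4 CPM against 10.8 to 13.9 CPM, and neither gene overlapped between the groups.

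Of 33 interferon-stimulated genes, 17 were higher and 1 lower at an unadjusted p under 0.05, 16 did not overlap upward, and the median was 0.96. The count of higher members was 10 without AAV-miR SOD1 replicate 1 or non-injected replicate 3. The count of lower members was 0 without AAV-miR SOD1 replicate 1, 2 or 4 or non-injected replicate 2 or 6. The lower one, named after its values were seen, was Ifi27, with a log2 fold change of -0.50. Rsad2, which encodes the antiviral enzyme viperin (chromosome 12, GRCm38, 26442746 to 26456452, minus strand), was at 549, 436, 187 and 288 CPM against 135, 41.8, 63.5 and 53 CPM. All 4 AAV-miR SOD1 libraries lay above the non-injected ones, with a log2 fold change of 2.32 ± 0.59 (SE; edgeR adjusted p = 0.14). With the control vector it ran from 29.2 to 294 CPM, which covers the non-injected range and reaches into the lower part of the AAV-miR SOD1 range. Isg15, a ubiquitin-like protein secreted in the interferon response, was at 125, 62.9, 45.1 and 55.2 CPM against 31.6, 8.83, 18 and 9.57 CPM. Isg20, an RNA exonuclease, was at 101 to 293 CPM against 30.3 to 90.1 CPM. AAV-miR SOD1 replicate 1 was the highest and non-injected replicate 3 the lowest of the 8 libraries for all 3, as they were for the erythroid sum.

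The interferon response motif (GAAANNGAAA on either strand) stood in the 250 bases before the start of 13 of 31 promoter windows of this list (41.9%), against 2.98% of all 32851 windows. The list was chosen for its known response, so this share describes the list and not these samples. The windows of the 2 genes described most closely are shown with the matches in capitals, Isg15 at chr4:156200819-156201068 and Rsad2 at chr12:26456453-26456702, both on the minus strand of GRCm38.p6 (RefSeq). Isg15 has 3 overlapping matches and Rsad2 has 1, on the opposite strand.
Isg15: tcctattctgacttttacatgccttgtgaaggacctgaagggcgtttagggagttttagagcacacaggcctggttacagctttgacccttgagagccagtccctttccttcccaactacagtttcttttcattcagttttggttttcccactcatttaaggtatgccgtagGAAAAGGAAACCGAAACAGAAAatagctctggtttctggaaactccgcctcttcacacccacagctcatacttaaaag
Rsad2: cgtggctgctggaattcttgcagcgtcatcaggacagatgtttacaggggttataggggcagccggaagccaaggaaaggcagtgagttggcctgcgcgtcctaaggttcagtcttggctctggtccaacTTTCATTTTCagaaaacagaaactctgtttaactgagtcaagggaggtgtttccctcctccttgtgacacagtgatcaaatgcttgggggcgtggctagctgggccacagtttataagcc

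Antigen presentation and innate receptors had the same sign. Of 19 genes for MHC class I, 10 were higher and 9 did not overlap (median 0.72), with 5 higher without non-injected replicate 3. Tap1, the peptide transporter, was at 67.5, 49.4, 35.2 and 37.3 CPM against 20.4, 15.7, 25.9 and 22.3 CPM. Complement and innate receptors had 8 of 24 higher, with 3 without AAV-miR SOD1 replicate 1, 4 without non-injected replicate 3, and 5 without AAV-miR SOD1 replicate 2 or non-injected replicate 6. Microglial markers had 6 of 14 higher (median 0.68), and 3 without AAV-miR SOD1 replicate 2 or non-injected replicate 3. Cx3cr1, the fractalkine receptor of microglia and monocytes, was at 17.1, 23.3, 17.8 and 20.6 CPM against 9.04, 4.21, 7.84 and 10.1 CPM. Tyrobp, the signalling adaptor of myeloid cells, was at 340 to 576 CPM against 139 to 269 CPM. Of the CD300 family of myeloid receptors, 5 of 8 were higher and 5 did not overlap (median 1.21), with 4 to 7 higher with each library left out. Cd300ld was at 17.6, 15.2, 10.9 and 15.9 CPM against 6.00, 3.82, 4.54 and 7.16 CPM. Clec7a, the dectin-1 receptor of myeloid cells, was at 31.4 to 52.6 CPM against 7.10 to 17.4 CPM.

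RNA machinery gave smaller differences, to be read against 9.36% higher and 11.5% lower among all genes. Splicing factors had 10 of 54 higher and 1 lower (median 0.19), with 3 higher without non-injected replicate 6 and 2 lower without AAV-miR SOD1 replicate 1. The lower member, Snrpn, a splicing protein preferred by neurons, was at 77.9 to 154 CPM against 138 to 362 CPM. Among RNA-binding proteins linked to the disease or kept with them on the list, 2 of 15 were higher and 2 lower. There were 6 higher without non-injected replicate 2, and 1 lower without AAV-miR SOD1 replicate 3 or non-injected replicate 3. Hnrnpa2b1 was at 476 to 720 CPM against 323 to 474 CPM, and Elavl4, a neuronal stabiliser of transcripts, at 42.9 to 67.0 CPM against 84.3 to 184 CPM. Translation initiation factors had 3 of 52 lower, with 1 lower without non-injected replicate 3 or 6 and 2 higher without AAV-miR SOD1 replicate 3 or non-injected replicate 5. Of 13 genes that make or use microRNAs, 3 were higher (median 0.30), and 1 without AAV-miR SOD1 replicate 2. Ago1, an Argonaute that binds microRNAs, was at 11.0, 10.6, 9.10 and 10.7 CPM against 7.57, 6.21, 4.62 and 4.89 CPM, without overlap (log2 fold change 0.83 ± 0.23 SE).

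Of developmental signalling pathways, the Notch pathway held the gene with the smallest p of all. Maml1, a co-activator of Notch (chromosome 11, GRCm38, 50255634 to 50292311, minus strand), was at 11.7, 10.7, 4.93 and 8.85 CPM against 1.85, 1.65, 2.57 and 1.97 CPM. The log2 fold change was 2.16 ± 0.35 (SE; edgeR adjusted p = 0.14), and it had the same sign over 20 alternatives, from 1.54 to 2.44. With the control vector it was at 8.35, 6.07, 6.15, 5.57 and 3.66 CPM, above every non-injected library. The rest of the pathway was less uniform: 5 of 23 tested genes were higher (median 0.06), and 3 without AAV-miR SOD1 replicate 1, AAV-miR SOD1 replicate 2 or non-injected replicate 3. None was lower, but 2 were without AAV-miR SOD1 replicate 2 and 1 without AAV-miR SOD1 replicate 3 or non-injected replicate 2 or 3. Notch2 was at 22.3 to 57.3 CPM against 12.9 to 26.6 CPM, and Adam10, the protease that cuts Notch at the surface, at 82.1 to 128 CPM against 45.8 to 73.6 CPM. The Wnt list had 1 higher and 3 lower of 25, against 9.36% and 11.5% of all genes. Its count of higher members was 2 without AAV-miR SOD1 replicate 1 or non-injected replicate 2 or 5 and 0 without each of the other libraries, and its count of lower members was 1 without AAV-miR SOD1 replicate 1, 3 or 4 or non-injected replicate 5. The TGF-beta and BMP list had 0 higher and 2 lower of 26. It had 0 lower without AAV-miR SOD1 replicate 4 or non-injected replicate 6, 1 lower without non-injected replicate 5, and 1 higher without non-injected replicate 2.

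**Figure D3:**
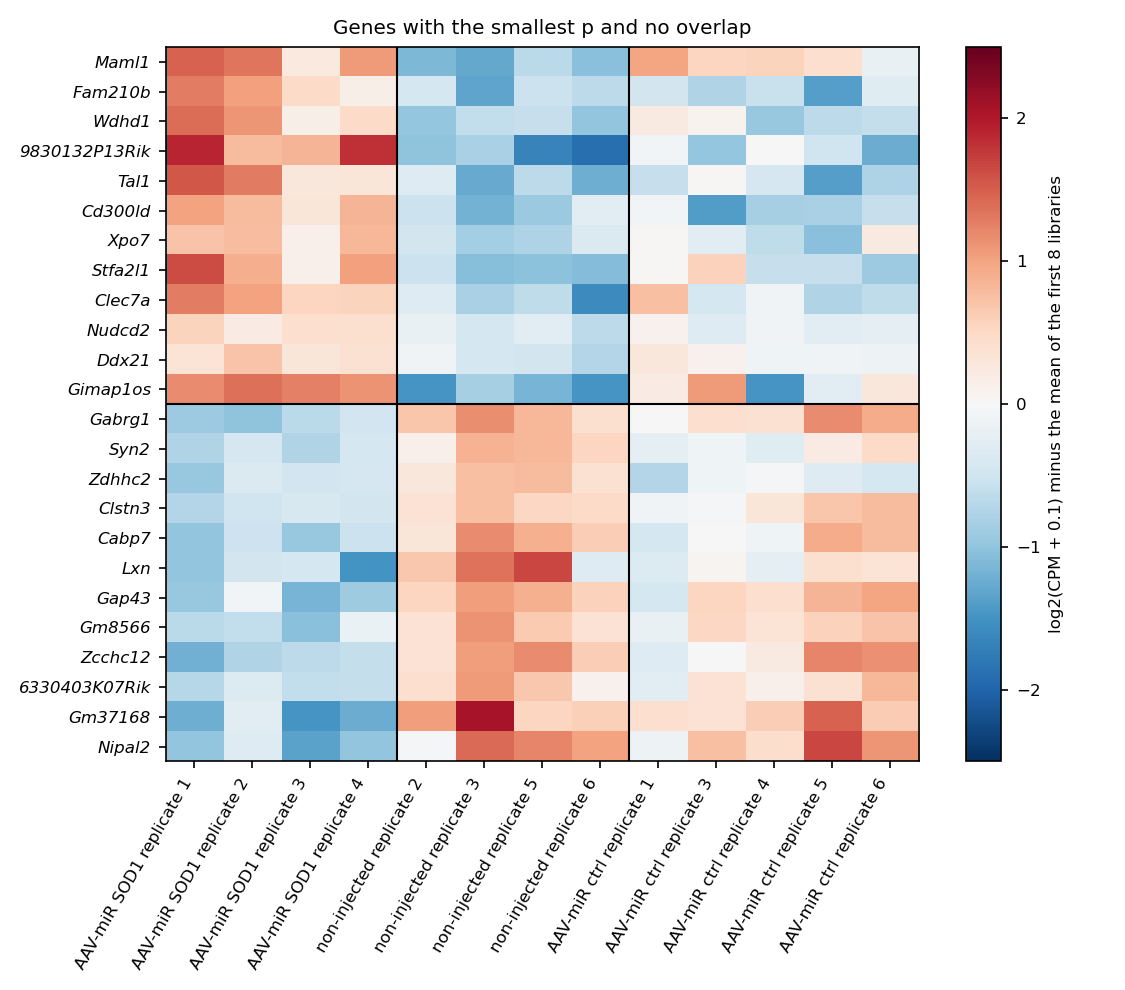
log2(CPM + 0.1) of the 12 higher and 12 lower genes with the smallest p among genes without overlap, each minus its mean over the 8 libraries of the comparison (first 8 columns); the 5 AAV-miR ctrl libraries stand at the right. The genes were chosen for separating the first 4 columns from the next 4. Maml1 is on the high side and Zdhhc2 on the low side in most AAV-miR ctrl libraries too.

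Among the other genes with the smallest p, several are known from red cell development. Tal1, a transcription factor of blood stem cells and erythroid cells, was at 29.6, 25, 12.3 and 12.5 CPM against 7.98, 4.16, 6.34 and 4.26 CPM. Fam210b, a mitochondrial protein of heme synthesis in erythroid cells, was at 124, 104, 70.9 and 56.7 CPM against 37.6, 20.4, 35.0 and 32.2 CPM. Xpo7, a nuclear exporter strongly expressed in maturing erythroblasts, was at 82.3 to 133 CPM against 41.9 to 58.3 CPM. Nudcd2 and Ddx21, a chaperone-like protein and a nucleolar helicase, had the smallest differences of these, with log2 fold changes of 0.78 and 0.86. Stfa2l1, of the stefin family of neutrophils, was at 3.13 to 9.04 CPM against 1.28 to 1.94 CPM. The long non-coding genes 9830132P13Rik and Gimap1os were near the level of 3 counts in non-injected libraries, at most 0.171 and 0.0569 CPM, so their fitted folds are not given.

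Of the lower genes with the smallest p, Zdhhc2, a palmitoyltransferase of postsynaptic PSD-95 (chromosome 8, GRCm38, 40423815 to 40510268, plus strand), was at 8.32, 12.6, 11.5 and 12.1 CPM against 19.8, 27.2, 28.2 and 21 CPM. With the control vector it was at 9.72 to 15.8 CPM, so both injected groups lay below every non-injected library. Lxn, which encodes the carboxypeptidase inhibitor latexin, was at 35.9, 52.1, 52.2 and 25.2 CPM against 114, 183, 226 and 56.7 CPM, with non-injected replicate 6 near the AAV-miR SOD1 range. Zcchc12, a neuronal transcriptional co-activator on the X chromosome (GRCm38, 36195904 to 36199158, plus strand), was at 8.46 to 13 CPM against 25.4 to 44.8 CPM. Nipal2, a magnesium transporter-like protein, was at 2.46 to 5.09 CPM against 6.23 to 17.1 CPM. 6330403K07Rik, Gm8566 and Gm37168 had log2 fold changes of -1.18, -1.26 and -2.32. Among the most abundant lower genes, Skp1a, a ubiquitin ligase core subunit, was at 406 to 568 CPM against 695 to 1190 CPM. Ctsd, the lysosomal protease cathepsin D, was at 580 to 736 CPM against 816 to 989 CPM, and Rabac1, a prenylated Rab acceptor, at 419 to 634 CPM against 694 to 966 CPM.

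**Figure D4:**
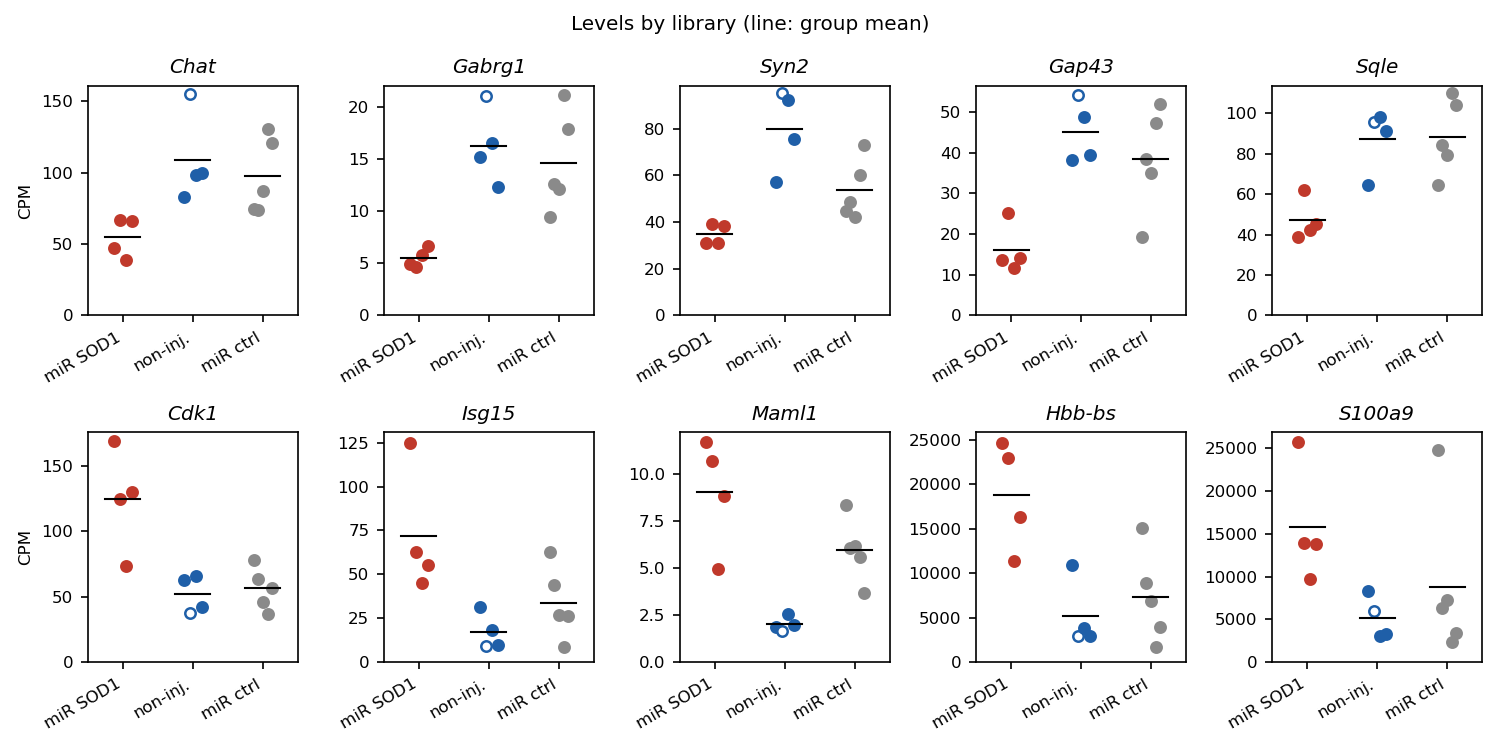
CPM of 10 genes in each library, with the group mean as a line: red AAV-miR SOD1 (n = 4), blue non-injected (n = 4, open circle replicate 3), grey AAV-miR ctrl (n = 5). Chat, Gabrg1, Syn2, Gap43 and Sqle are lower and Cdk1, Isg15, Maml1, Hbb-bs and S100a9 higher in AAV-miR SOD1 than in non-injected libraries, without overlap. The control vector libraries reach into the range of at least 1 of these groups for each gene.

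Because the erythroid sum separated the groups, the model was also fitted, after the data were seen, with the log2 of that sum as a covariate over all 13 libraries. At an unadjusted p under 0.05 it gave 126 higher and 322 lower genes, 448 in all, of which 182 were also among the 3635. The erythroid sum did not overlap between the 2 groups compared, so this model leans on the spread within groups and on the control vector libraries, and group and covariate cannot be told apart fully. The median log2 fold change of the cholinergic list was -0.03 in place of -1.19, that of the axonal cytoskeleton -0.28 in place of -0.90, that of vesicle release -0.23 in place of -0.87, and that of cholesterol synthesis -0.23 in place of -0.74. Replication and mitosis had 0.34 in place of 1.22, interferon-stimulated genes 0.10 in place of 0.96 and MHC class I 0.17 in place of 0.72. Oligodendrocyte markers went the other way, to -1.48 from -0.40, with 10 of 12 lower.

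Single genes differed in how far they moved with that covariate. Among lower genes Gabrg1 had a log2 fold change of -0.97, Lxn of -1.41, Gap43 of -1.02, Zdhhc2 of -0.89 and Syn2 of -0.78, while Chat had -0.42, Ecel1 -0.41 and Stmn2 -0.28. Stmn4 had -1.27, larger in size than its -1.04 without the covariate. Among higher genes Maml1 kept 1.62, Apaf1 1.04, Cd300ld 1.10, Casp9 0.89 and Ago1 0.71, while Rsad2 had 0.29, Isg15 0.21 and Cdk1 0.42. The adjusted p of every gene in that model was 1.

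Within the libraries numbered 1 to 4 alone, where depth was more alike, 2863 of 18274 genes had an unadjusted p under 0.05. The cholinergic list had a median of -1.17 with 10 of 12 lower, replication and mitosis 1.40 with 30 of 36 higher, interferon-stimulated genes 1.11 with 10 of 33 higher, and cholesterol synthesis -0.62 with 12 of 22 lower. The erythroid list had 1.57 there with 18 of 19 higher. The direction for all of these lists was that of the full comparison. Not every list held there: neutrophil markers had 3 of 14 higher in place of 10, and B lineage markers 1 of 14 in place of 7. Cytosolic ribosomal proteins had 0 of 82 higher in place of 11. The median of the early genes was 0.43 in place of -0.51, and that of the Wnt list 0.42 in place of -0.22. That fit has 2 non-injected libraries, replicates 2 and 3, and replicate 3 is the library with the conflicting header. In the cholinergic sum, non-injected replicate 2 at 1758 CPM lay within the AAV-miR SOD1 range of 1182 to 2151 CPM. Non-injected replicate 3 was at 5103 CPM.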

How the data were processed

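RNA was measured in 13 libraries of laser-captured lumbar motoneurons from SOD1-G93A mice, 500 cells per mouse, amplified with the SMARTer Ultra Low kit and prepared with Nextera XT, per the labels' protocols. The authors deposited raw read counts per gene, 1 table per library. The submitters' processing notes name cutadapt 1.8, STAR 2.5.2b, HTSeq 0.6.1 and GRCm38, and the gene annotation and strand setting are not given in the sources used here, so reads of overlapping or antisense genes may not be told apart. Summary rows that name no gene were kept out of library sizes and tests.

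Groups were taken from the titles. Genes were filtered with filterByExpr (minimum count 10, total 15), scaled by TMM and tested with edgeR 4.0.16 in R 4.3.3 (quasi-likelihood F test, Benjamini-Hochberg adjustment over 17403 genes). All 13 libraries entered the filter, the scaling and the fit, to share the estimate of spread (common biological coefficient of variation 0.47, 10 residual degrees of freedom). CPM are counts scaled to a library total of 1000000 after TMM scaling, and marker sums are sums of CPM. Standard errors are of the log2 fold change, from its size and the F statistic. The edgeR p-values set the difference between the groups against the spread between single mice, estimated over all 13 libraries.

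The gene lists and the rule for named genes were chosen with earlier results of these data known. Named genes are the 12 per direction with the smallest p among genes whose groups do not overlap, the 8 most abundant per direction among non-overlapping genes with an unadjusted p under 0.05, up to 3 members per list with the smallest p, and Sod1. Some of these genes are not reported here. Alternatives were DESeq2 1.42.0, limma-voom 3.58.1, other scalings and filters, the 2 groups alone, a replicate block, each library left out, the header exchange, and, chosen after seeing the data, the erythroid covariate. Tested on data simulated for this comparison with 200 changed genes among 17403, edgeR recovered 64% of those changed 4-fold and 96% of those changed 16-fold. Promoter windows were the 250 bases before each RefSeq start (GRCm38.p6).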

Additional observations from a re-analysis of the deposited data

Results flagged for a closer look

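Each group of 4 libraries was searched for a library far from the others in 140 measures and groups, where chance would give about 7 such cases, and 11 were found. AAV-miR SOD1 replicate 4 had 22317 genes with at least 1 count, with 23146 in the next library, and 15874 genes with at least 10 counts, with 16581 in the next. That library also had the smallest count total of its group, 16.4 M (1 M is 1000000 counts). Its B lineage markers summed to 1518 CPM, with 853 CPM in the next library.

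Non-injected replicate 2 stood apart in its group for Hbb-bs at 10962 CPM, with 3785 CPM in the next library, and for Stfa2l1 at 1.94 CPM, with 1.35 CPM in the next. Its excitatory interneuron markers summed to 38.8 CPM, with 10.9 CPM in the next library. Non-injected replicate 5 had a fibroblast marker sum of 18729 CPM, with 6351 CPM in the next, and non-injected replicate 3 a sensory neuron marker sum of 2.45 CPM, with 0.60 CPM in the next. Among single genes, Ddx21 was at 51.7 CPM in AAV-miR SOD1 replicate 2, with 41.0 CPM in the next. Gm37168 was at 1.2 CPM in the same library, with 0.579 CPM in the next, and Tppp3 was lowest in AAV-miR SOD1 replicate 1 at 403 CPM, with 625 CPM in the next.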

How the results depend on the processing

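By edgeR and limma-voom 0 genes passed an adjusted p of 0.05 under any alternative run, including each library left out (0 to 0). DESeq2 called 1025. The 3635 genes at an unadjusted p under 0.05 became 448 (126 higher, 322 lower) with the erythroid covariate, 1441 (863 and 578) with a replicate block and 2258 (1328 and 930) without both libraries of conflicting header. Exchanging those libraries gave 1332 lower. Leaving out each library gave 2431 to 4146 in all, 983 to 2188 higher (983 without AAV-miR SOD1 replicate 1) and 1382 to 1958 lower. Of these genes, 44.8% were higher in the main model, 50.6% with DESeq2's scaling, 53.4% with upper quartile scaling, 58.1% with the 2 groups alone, 59.9% with the block, 58.8% without both header libraries, 60.1% without AAV-miR SOD1 replicate 3, 54.9% without non-injected replicate 5 and 28.1% with the covariate. Deviations of same-numbered libraries from their group means correlated at -0.19 (replicate 2) and -0.08 (replicate 3) between the 2 groups compared. With the control vector libraries the correlations were 0.24 for AAV-miR SOD1 replicates 1 and 3 and 0.00 for replicate 4, and -0.11, 0.19 and 0.04 for non-injected replicates 3, 5 and 6. Not every pair was over 0.1, and the main model did not use the numbers. These correlations cannot show a difference between libraries numbered 1 to 4 and those numbered 5 and 6, since each pair shares 1 number. AAV-miR SOD1 has no replicates 5 and 6. The block result above is given for reference.

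Of 178 named genes, the sign reversed under the erythroid covariate alone, for 14: Hbb-bs (-0.09), S100a9 (-0.32), S100a8 (-0.18), Tmsb4x (-0.01), Hba-a1 (-0.01), Camp (-0.07), Pkm (0.01), Calca (0.25), Hapln4 (0.01), Map1lc3a (0.02), Ndufa10 (0.07), Smad1 (0.03), Nkg7 (-0.07) and Cd3g (-0.20). Hbb-bs and Hba-a1 belong to the list that makes the covariate, so the loss of their difference follows from how the model was built. For the other genes the cause was not tested. With each library left out, the log2 fold change of Sod1 ran from -0.64 to -0.28. The difference in counts ran from -12.5 to -5.86 M (-12.5 without non-injected replicate 3, exact permutation p = 0.0286), in genes with at least 1 count from 768 to 1204 and with at least 10 from -647 to -136 (-647 without the same library, exact permutation p = 0.0286). The mitochondrial share differed by -0.188 points, and by -0.480 to 0.0740 with each library left out (0.0740 and 0.0306 without non-injected replicate 2 or 3). Per 100 assigned counts, several-place alignments differed by 22.1 to 37.2, ambiguous reads by -0.793 to -0.366 and reads in no gene by 0.986 to 2.05, and the share of the 100 highest genes by 2.05 to 5.61 points.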
